A study of Homo sapiens with 3 samples.

Results

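The genes described here make, lengthen and desaturate fatty acids: ACLY, ACACA, FASN, ME1, SCD, ELOVL6, ELOVL1, ELOVL5, FADS2 and FADS1. They were chosen by gene symbol on the array, and 9 of the 10 had a probe set with that symbol alone, out of 22465 genes so annotated. The FADS1 probe set is shared with the microRNA gene MIR1908, so its values are given but not counted as FADS1. Each of the 9 genes had 1 probe set. ELOVL5 and FADS2 lay under the minimum mean log2 signal of 5 used for comparison, which left 7 of the 9 among the 9630 genes compared.

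RNA came from DLD1, an established human colon cancer cell line, which received a control siRNA, siH19-1 or siH19-2. The last 2 are different siRNAs against H19, an imprinted long noncoding RNA, and all 3 conditions received siRNA at 50 nM. Each condition was measured on 1 Affymetrix whole-transcript array. Every difference below is thus between single arrays, with no replicate and no error, except in a fit that joins both siRNA arrays. No p-value is given for any difference. The treatment protocol gives 48 hours of transfection and the design text gives 24 hours.

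Cytosolic fatty acid synthesis starts from citrate. ACLY splits citrate to acetyl-CoA, ACACA carboxylates it to malonyl-CoA, and FASN builds palmitate from both with NADPH, part of which ME1 supplies. ELOVL6 lengthens palmitate to stearate and SCD introduces the first double bond, while FADS1, FADS2, ELOVL5 and ELOVL1 work on polyunsaturated or very long chains. Many of these genes are known targets of the transcription factor SREBP1, and tumour cells often make fatty acids themselves instead of relying on uptake.

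A gene is said below to have risen or fallen when its deposited signal differed by at least 1.5-fold, which is 0.58 on the log2 scale. With siH19-1, 253 of the 9630 compared genes fell and 152 rose; with siH19-2, 862 fell and 283 rose. The share of changed genes that were higher was 37.5% and 24.7%, and it depended on the scaling between arrays: it ranged from 23.2% to 52.9% with siH19-1 and from 13.4% to 45.6% with siH19-2. The probe set shared by H19 and MIR675 read 7.88 in control, 7.74 in siH19-1 and 7.37 in siH19-2, so neither siRNA array was 1.5-fold lower. Of the epithelial and intestinal markers 6 of 9 passed the signal minimum, with KRT8 at 15.46, 15.64 and 15.26 in control, siH19-1 and siH19-2, whereas 0 of 8 markers of mesenchymal, blood, endothelial, fat or liver cells did (mean log2 signals from 2.51 to 3.60). The intestinal markers KRT20, VIL1 and CDX1 lay under the minimum (means of 4.26, 3.87 and 3.01), and CDX2 passed it (7.94). The epithelial adhesion gene EPCAM read 14.74, 14.70 and 13.02, lower in siH19-2, and CDH1, which encodes E-cadherin, read 10.27, 12.10 and 12.23, higher with both siRNAs.

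With siH19-2, 4 of the 7 compared genes fell, where 8.95% of all compared genes did. They were ACACA, FASN, SCD and ELOVL6, whose enzymes act between acetyl-CoA and monounsaturated long chains. The median of the 7 genes was -0.67 against -0.07 for all compared genes. All 7 were below control, also under 5 other scalings (58.4% of all compared genes were as deposited). With siH19-2, 0 of the 7 rose, which lies near the 2.94% of all compared genes that did. The arrays measured bulk RNA, in which less RNA per cell and fewer cells with the RNA cannot be told apart. With siH19-1, 1 of the 7 fell, FASN, where 2.63% of all compared genes did. The siH19-1 median was -0.02 against -0.06 for all compared genes, with the 7 genes spread from -0.63 to 0.30. FASN was thus the 1 gene of the 7 that fell with both siRNAs, as 1.09% of all compared genes did, and both comparisons use the same control array.

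**Figure D1:**
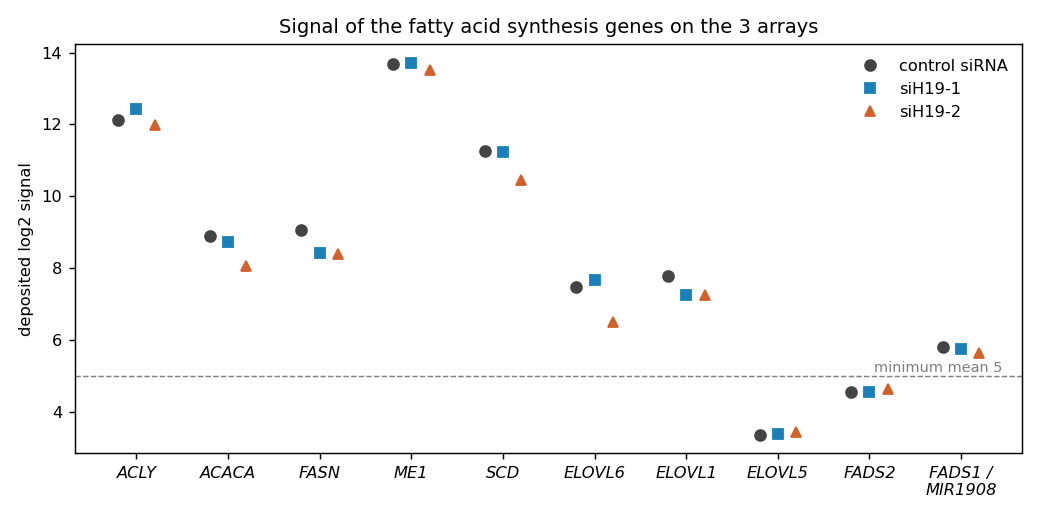
Deposited log2 signal (vertical axis) of the 9 genes and of the probe set shared by FADS1 and MIR1908 on the control, siH19-1 and siH19-2 arrays, 1 point per array. ACACA, SCD and ELOVL6 have the siH19-2 point alone below the other two, whereas in FASN and ELOVL1 both siRNA points lie below control; the dashed line marks the signal minimum of 5.

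ACLY and ME1 stayed under 1.5-fold with both siRNAs. ACLY, the ATP-citrate lyase, read 12.12 on the control array, 12.42 on the siH19-1 array and 11.99 on the siH19-2 array. Its differences of 0.30 and -0.13 were both under 1.5-fold and opposite in sign. ME1, the cytosolic malic enzyme, read 13.67, 13.72 and 13.50 in the same order, differences of 0.05 and -0.17. These were the 2 smallest siH19-2 differences among the 7 genes.

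ACACA, the cytosolic acetyl-CoA carboxylase that commits carbon to fatty acids, read 8.89 on the control array, 8.73 on the siH19-1 array and 8.06 on the siH19-2 array. The siH19-2 array stood apart from the other two, at 56.3% of the control signal (-0.83) and 62.9% of the siH19-1 signal (-0.67). With siH19-2, 3.99% of the 9630 compared genes had a deeper decrease. The siH19-1 difference of -0.16 was under 1.5-fold.

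FASN, the fatty acid synthase, read 9.06 with control siRNA and lay close together on the siRNA arrays, at 8.43 with siH19-1 and 8.39 with siH19-2. The differences were -0.63 and -0.67, or 64.6% and 62.9% of control, and the siRNA arrays differed from each other by -0.04. A deviation of the 1 control array and a decrease shared by both siRNAs cannot be told apart for such a gene. The siH19-1 value sat near the threshold: after 4 of 5 other scalings of the arrays it was -0.53 to -0.58, under 1.5-fold, and with siH19-2 FASN was under it after 2 of them, at -0.56 and -0.52.

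SCD, the stearoyl-CoA desaturase that makes oleate and palmitoleate, read 11.26 in control, 11.24 in siH19-1 and 10.46 in siH19-2. Control and siH19-1 differed by -0.02, and siH19-2 was 57.4% of control (-0.80). ELOVL6, the elongase of saturated and monounsaturated long chains, read 7.46, 7.67 and 6.51. Its siH19-2 difference of -0.95, to 51.8% of control, was the deepest of the 7 genes, and 2.83% of compared genes had a deeper one. With siH19-1 ELOVL6 was above control by 0.21, so the siRNA arrays differed from each other by -1.16, more than either did from control.

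ELOVL1, the elongase of saturated very long chains, read 7.79 in control, 7.24 in siH19-1 and 7.26 in siH19-2. Like FASN it was lower than control by a like amount on both siRNA arrays, -0.55 and -0.53, which is just under 1.5-fold. It passed the threshold with both (-0.61 and -0.63) when each array was centred on the median of all probe sets. ELOVL5, the elongase of polyunsaturated chains, read 3.36, 3.38 and 3.45, and FADS2, the delta-6 desaturase, read 4.55, 4.54 and 4.63. Both lay under the signal minimum on all 3 arrays, where a change can be hidden, and no detection call was used that would say whether either is present. The probe set shared by FADS1, the delta-5 desaturase, and MIR1908 read 5.80, 5.76 and 5.63, differences of -0.04 and -0.17.

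Set against siH19-1 in place of control, siH19-2 was lower by at least 1.5-fold for 3 of the 7 genes, ACACA, SCD and ELOVL6, where 5.7% of all compared genes were. The next was ACLY at -0.43, then ME1 at -0.22, while FASN (-0.04) and ELOVL1 (0.02) were nearly equal on both siRNA arrays. This comparison does not use the control array. The 3 genes passed the threshold in it under all 5 other scalings as well, and each also fell with siH19-2 against control under all 5.

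**Figure D2:**
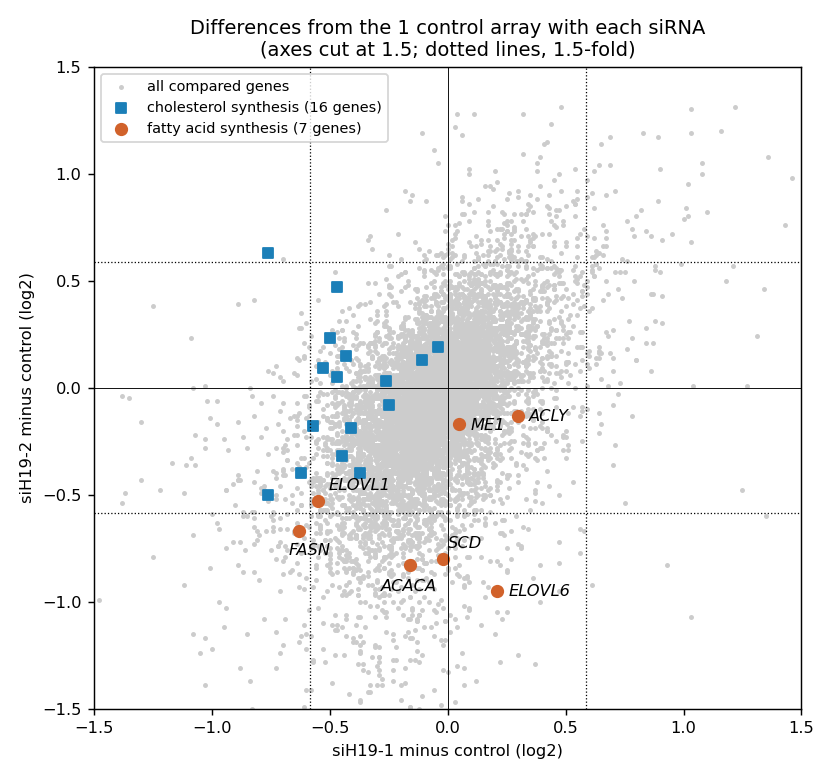
Log2 difference from control with siH19-1 (horizontal axis) and siH19-2 (vertical axis) for all compared genes (grey), the 7 compared fatty acid synthesis genes (orange) and 16 cholesterol synthesis genes (blue), with 103 genes beyond the axes not drawn. ACACA, SCD and ELOVL6 lie low on the vertical axis and near 0 on the horizontal one, and the cholesterol synthesis genes lie to the left, above most of the fatty acid genes; both axes share the 1 control array.

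**Figure D3:**
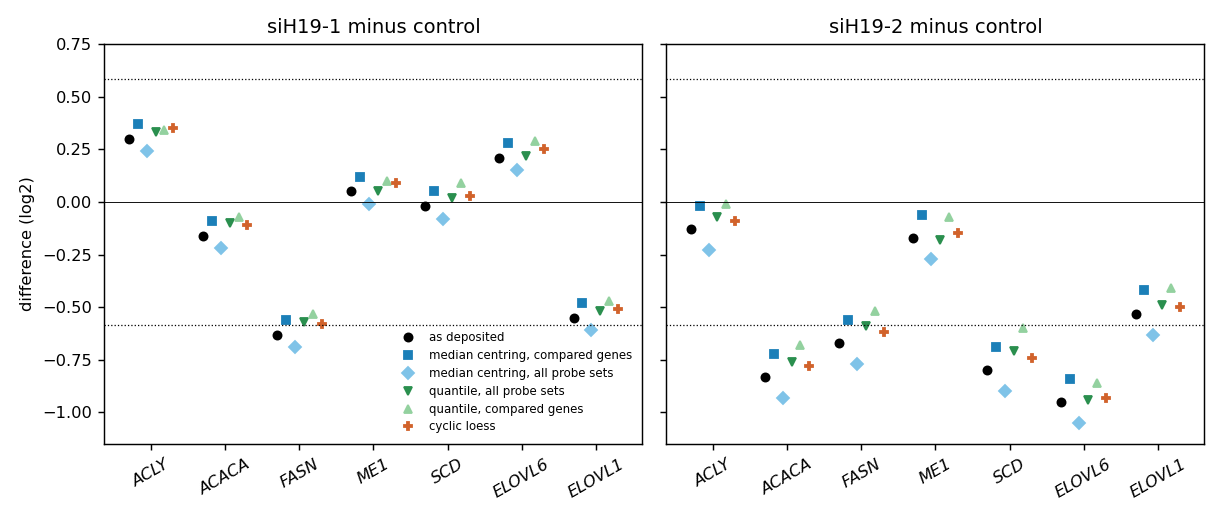
Log2 difference from control (vertical axis) of the 7 compared genes with siH19-1 (left) and siH19-2 (right), as deposited and after 5 other scalings of the arrays, 1 point per scaling. With siH19-2, ACACA, SCD and ELOVL6 stay below the dotted 1.5-fold line under each, whereas FASN and ELOVL1 lie on either side of it.

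Promoter windows are shown for the 3 genes that were low on the siH19-2 array alone and for ELOVL1, which was lower on both siRNA arrays. They come from RefSeq (GRCh38.p14), run 5′ to 3′ on the gene's strand, and hold 250 bases before and 50 bases from the transcript start. Capitals mark the CCAAT box (CCAAT or its reverse complement ATTGG) and the GC box (GGGCGG or CCGCCC).
SCD, chr10:100346983-100347282, plus strand: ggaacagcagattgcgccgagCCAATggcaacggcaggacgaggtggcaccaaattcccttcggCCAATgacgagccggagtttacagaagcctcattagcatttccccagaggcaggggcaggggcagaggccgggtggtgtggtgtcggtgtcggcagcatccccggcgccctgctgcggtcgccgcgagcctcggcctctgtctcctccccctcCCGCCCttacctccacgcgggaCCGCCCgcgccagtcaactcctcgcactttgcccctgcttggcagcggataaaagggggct
ELOVL6, chr4:110198566-110198865, minus strand: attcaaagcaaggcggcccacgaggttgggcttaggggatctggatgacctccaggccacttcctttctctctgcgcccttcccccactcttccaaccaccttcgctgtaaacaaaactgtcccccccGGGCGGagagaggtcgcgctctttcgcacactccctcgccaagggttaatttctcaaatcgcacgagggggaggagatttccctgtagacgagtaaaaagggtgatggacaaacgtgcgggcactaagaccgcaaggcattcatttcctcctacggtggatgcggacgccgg
ACACA, first of 3 windows, chr17:37406787-37407086, minus strand: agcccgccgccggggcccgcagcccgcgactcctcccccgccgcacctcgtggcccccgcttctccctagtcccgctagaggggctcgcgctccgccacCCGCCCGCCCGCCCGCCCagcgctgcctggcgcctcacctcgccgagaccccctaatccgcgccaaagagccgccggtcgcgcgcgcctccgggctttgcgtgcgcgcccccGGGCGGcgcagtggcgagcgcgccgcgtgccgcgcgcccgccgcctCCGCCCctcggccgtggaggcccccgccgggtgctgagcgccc
ELOVL1, chr1:43367962-43368261, minus strand: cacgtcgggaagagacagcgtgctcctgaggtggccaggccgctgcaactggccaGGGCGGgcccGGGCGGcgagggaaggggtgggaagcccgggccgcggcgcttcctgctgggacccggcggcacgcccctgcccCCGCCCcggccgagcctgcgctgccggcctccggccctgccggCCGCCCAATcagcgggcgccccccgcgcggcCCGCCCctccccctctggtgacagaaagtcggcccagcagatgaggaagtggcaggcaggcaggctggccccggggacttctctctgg
The table was matched for 9 of the 10 genes, with 13 windows, and the motif counts leave out FASN. Both strands were searched for TCACNCCAC, a core of the sterol response element bound by SREBP, and for the CCAAT box, the GC box and the E-box CACGTG. The CCAAT box, bound by NF-Y, was found in 8 of the 13 windows and in 34.6% of all 35116 windows, and the GC box, bound by Sp1, in 10 of the 13 and in 45% of all. The ACLY windows overlap each other and hold the same matches, and by gene the CCAAT box was found for 6 of 9 and the GC box for 8 of 9. No share by gene was computed over all genes. The G and C share over all windows was 57.5%. Of the 13 windows, those of ELOVL5 and ELOVL6 (57.3% each) and the third of ACACA (45.3%) were below it. The others were above it, up to 82.3% in the first ACACA window, and the GC box counts were not adjusted for this. SCD had 2 CCAAT boxes and 2 GC boxes, ELOVL6 had 0 and 1, the first ACACA window 0 and 6, and ELOVL1 1 and 5, with its CCAAT box overlapping a GC box. TCACNCCAC was in 0 of the 13 windows and in 1.13% of all, and CACGTG in 1, that of ELOVL5, and in 7.26% of all. The second ACACA window had 1 CCAAT box and 7 GC boxes, and the third had 2 and 0. In the windows printed, the 3 low genes each held a GC box, but differed in the number and place of the matches. A match is not a bound site. Only the stated letters were searched, so the absence of a match says nothing of variant sites inside the window or of sites outside it.

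**Figure D4:**
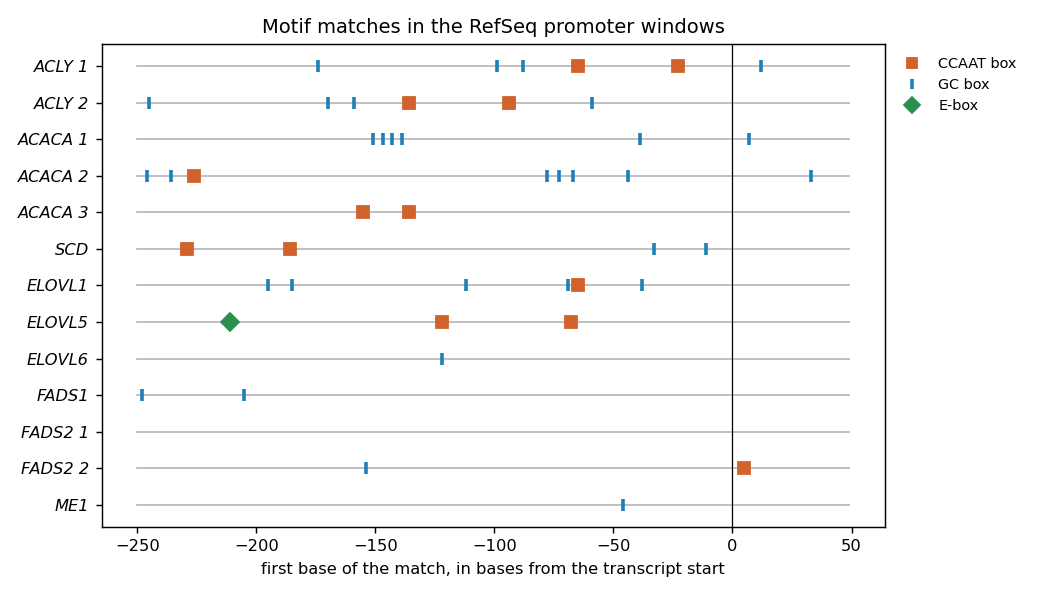
Matches of the CCAAT box, GC box and E-box in the 13 promoter windows (rows; genes with several windows are numbered), by the distance of the first matching base from the transcript start (horizontal axis, bases). SCD and the third ACACA window carry 2 CCAAT boxes, ELOVL6 has 1 GC box alone, and ELOVL5 holds the 1 E-box.

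Genes that feed carbon and NADPH into the pathway fell with siH19-2 at 2 of 7 compared genes, where 8.95% of all compared genes did. With siH19-1, 0 of these 7 fell, near the 2.63% of all compared genes that did. ME2, the mitochondrial malic enzyme, read 11.54 in control, 11.25 in siH19-1 and 9.82 in siH19-2, and fell with siH19-2 (-1.72). PGD, the 6-phosphogluconate dehydrogenase of the pentose phosphate pathway, read 13.34, 12.90 and 12.09 and fell with siH19-2 (-1.25). Both differed in the same direction with siH19-1 by less than 1.5-fold, at -0.29 and -0.44. SLC25A1, the mitochondrial citrate carrier (-0.20 and -0.12), and ACSS2, which makes acetyl-CoA from acetate (0.00 and 0.17), stayed under 1.5-fold. The list's medians were -0.24 with siH19-1 and 0.12 with siH19-2, so the 2 deep decreases were not shared by its other genes.

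The regulators that act on these genes were mostly under 1.5-fold. SREBF1, which encodes SREBP1, read 5.69, 5.60 and 5.65 in control, siH19-1 and siH19-2, and its differences were -0.09 and -0.04. SCAP, the escort of SREBP (-0.17 and -0.13), and INSIG1, which holds SCAP in the endoplasmic reticulum (-0.11 and -0.10), also stayed under 1.5-fold with both siRNAs. SREBF2, which encodes SREBP2, was at -0.47 with siH19-1 and 0.15 with siH19-2. SPRING1, a regulator of SREBP activation, rose with both (1.22 and 1.31), as 0.685% of all compared genes did. With siH19-2, INSIG2, a relative of INSIG1, rose (0.71), as did PRKAB2, a subunit of the kinase AMPK that phosphorylates acetyl-CoA carboxylase (0.69). The list's other compared AMPK subunits, PRKAA1 (-0.28), PRKAB1 (-0.01) and PRKAG1 (-0.22), did not rise with siH19-2. MLX, a partner of the carbohydrate-responsive factor ChREBP, fell with siH19-2 (-0.98). MLXIPL, which encodes ChREBP, lay under the signal minimum (mean of 3.82). PRKAA1, PRKAB1, PRKAG1 and MLXIPL were named after their values were seen. Of the 15 compared regulators 1 rose and 0 fell with siH19-1, and 3 rose and 1 fell with siH19-2, where 1.58% and 2.94% of all compared genes rose and 2.63% and 8.95% fell. The medians were -0.05 and -0.10.

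The other carboxylase, elongase, desaturase and elongation cycle genes had 0 of 10 compared genes past 1.5-fold with either siRNA. With shares over all compared genes of 1.58% higher and 2.63% lower (siH19-1) and 2.94% and 8.95% (siH19-2), a count of 0 among 10 genes lies near the background. ACACB, the carboxylase at the mitochondrial membrane, was at -0.16 and 0.17, SCD5, the second human stearoyl-CoA desaturase, at -0.05 and 0.03, and FADS3 at 0.02 and -0.06. HSD17B12, a reductase of the elongation cycle, read 10.54 in siH19-1, above control by 0.54, and was equal in control and siH19-2 (0.00). The siH19-1 value reached 1.5-fold after 3 of 5 other scalings, at 0.60 to 0.62. TECR, also of this list, had only a probe set shared between gene symbols and was not compared. The list's medians, -0.05 and -0.03, lay close to those of all compared genes.

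Cholesterol synthesis, the other lipid pathway under SREBP control, is the closest gene group for comparison. Its 16 compared genes had a median of -0.46 with siH19-1, all 16 were below control (61.9% of all compared genes were), and 3 fell (2.63% of all did): MSMO1 (-0.76), NSDHL (-0.76) and SC5D (-0.62), which act late in the sterol pathway. SC5D was under 1.5-fold after 4 of 5 other scalings, at -0.55 to -0.57. CYP51A1, at -0.04 with siH19-1 as deposited, was at 0 to 0.03 after 4 of 5, no longer below control. With siH19-2 the cholesterol median was 0.04, 0 of the 16 fell (8.95% of all compared genes did) and 1 rose (2.94% did), MSMO1 (0.63), which was under 1.5-fold (0.53) after centring on all probe sets. The fatty acid genes thus had the lower median with siH19-2 (-0.67 against 0.04) and the higher one with siH19-1 (-0.02 against -0.46). Between the siRNA arrays, 4 of the 16 cholesterol genes were higher with siH19-2 by at least 1.5-fold (2.51% of all compared genes were). Of the 7 fatty acid genes, 3 were lower (5.7% of all were). The counts of 0 lower among the 16 and 0 higher among the 7 lie near these shares. The 4 cholesterol genes were MSMO1 (1.39), SQLE (0.94), HSD17B7 (0.73) and ACAT2 (0.62), the last 3 chosen after their values were seen. With 1 array per condition the difference between the 2 gene groups was not tested.

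**Figure D5:**
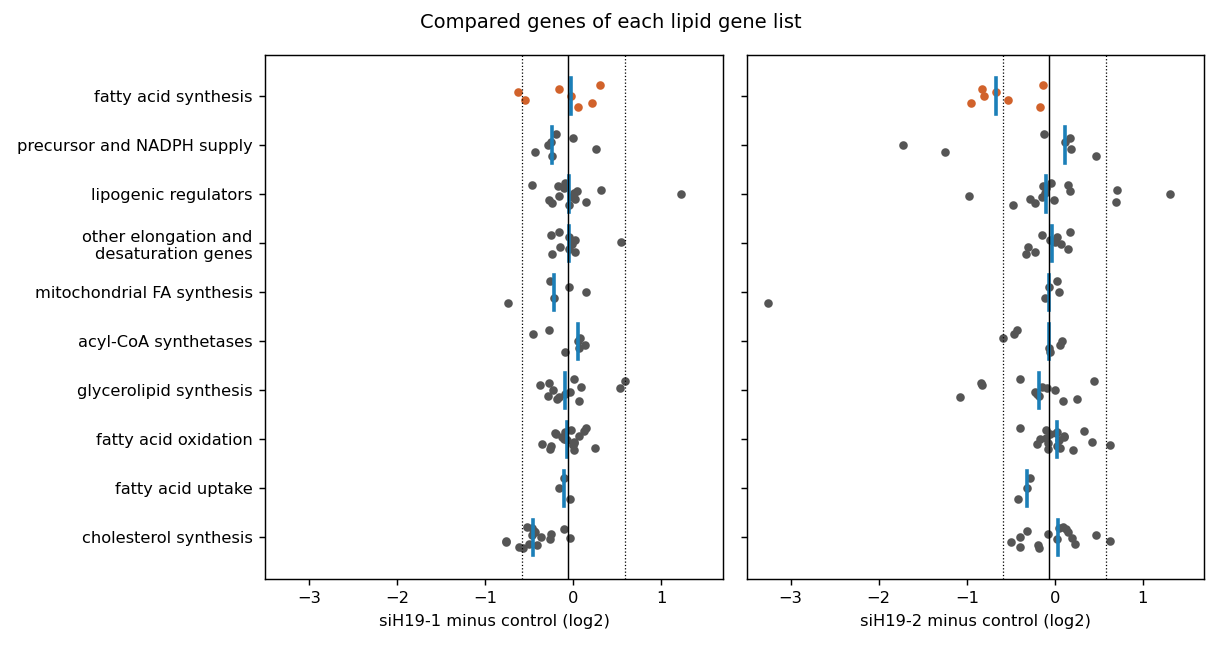
Log2 difference from control with siH19-1 (left) and siH19-2 (right) for the compared genes of 10 lipid gene lists, 1 point per gene; blue bars are list medians, the solid line is the median of all compared genes and the dotted lines mark 1.5-fold. The fatty acid synthesis list has a median of -0.67 with siH19-2 and -0.02 with siH19-1, and cholesterol synthesis has 0.04 and -0.46.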

How the data were processed

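RNA of 3 DLD1 cultures, 1 per condition, was measured on 3 arrays from 500 ng of total RNA each. Per the submitters' processing notes, the authors made the deposited log2 values with Affymetrix Expression Console and RMA; no version is given. The values reach 19.93, and 315 to 337 probe sets per array lie above 16, which a 16-bit scanner cannot exceed on a log2 scale, so an unstated transformation is possible and a fold here is one on the deposited scale. Of 67528 probe sets an annotation that can be out of date named 23781 with a single symbol, 1543 with several and 42204 with none; symbols were updated through a RefSeq table of GRCh38.p14, which held 22167 of 22465 genes. A gene with several probe sets took the one with the highest mean. Only genes averaging at least 5 on the log2 scale over the 3 arrays were compared, and the rule of size was 1.5-fold.

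The genes and lists were chosen with earlier results of these data known. Named were all 10 genes, H19, neighbours of their steps, CDH1, and genes of the lipid gene lists past 1.5-fold with both siRNAs, or up to 3 per list with either. Alternatives changed the scaling between arrays, the signal minimum, the probe set rule and the threshold; limma 3.58.1 (R 4.3.3) fitted both siRNA arrays against control. Rules were tested on simulated data. Python 3.11.15 with pandas 2.3.3 and numpy 2.4.6 gave the remaining values. Precision is limited by having 3 arrays, and nothing says more than 1 culture was used per condition.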

Additional observations from a re-analysis of the deposited data

How the results depend on the processing

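With 1 array per condition there are no replicates to leave out, and depth does not apply. No paired analysis was possible because each condition has 1 array. The number of the 7 compared genes past 1.5-fold with siH19-1, 1 as deposited (FASN), was 0 after median centring on the compared genes, quantile normalization or cyclic loess and 0 at a 2-fold threshold; of 2 scalings chosen after seeing the data, quantile normalization over the compared genes gave 0 and centring on all probe sets gave 2. With siH19-2 the number was 4 as deposited, 3 to 5 under the 5 scalings and 0 at 2-fold. The siH19-2 median of -0.67 ranged from -0.52 to -0.77 under the scalings and was -0.53 with no signal minimum; with the shared FADS1 probe set also counted and no minimum, chosen after seeing the data, it was -0.35. The siH19-1 median went from -0.08 to 0.09 under the scalings and so has no settled sign. Counts of all compared genes at 2-fold were 78 with siH19-1 and 302 with siH19-2. With limma, both siRNA arrays were fitted against control (1 residual degree of freedom, with the control assumed as variable as the siRNA arrays). The residual comes only from the gap between the 2 siRNA arrays, which are not replicates, so p-values are not given. Fitted differences were -0.65 for FASN, -0.54 for ELOVL1, -0.5 for ACACA, -0.41 for SCD, -0.37 for ELOVL6, -0.06 for ME1 and 0.08 for ACLY. By the size rule, 171 of the 9630 genes, and of the 7 only FASN, fell with both siRNAs or rose with both. A signal minimum of 7 and the mean over probe sets could not change the values of the 7 genes. Each has 1 probe set, and the lowest mean signal among the 7 is 7.21 (ELOVL6). The cause of these shifts beyond each setting's own construction was not tested.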

Other observations

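Steps downstream of fatty acid synthesis were also measured. Of 13 compared genes of glycerolipid synthesis, 3 fell with siH19-2, where 8.95% of all compared genes did: CDS1, which makes CDP-diacylglycerol (9.50 in control, 9.34 in siH19-1 and 8.42 in siH19-2), GPAT4, a glycerol-3-phosphate acyltransferase (8.26, 7.99 and 7.42), and AGPAT1, an acyltransferase that makes phosphatidic acid (6.57, 6.19 and 5.74). Their siH19-2 differences were -1.08, -0.84 and -0.83, and their siH19-1 differences, -0.16, -0.27 and -0.38, were under 1.5-fold. With siH19-1, 1 of the 13 rose, where 1.58% of all compared genes did. It was GPAT3, another glycerol-3-phosphate acyltransferase (0.59), which was at 0.44 with siH19-2. After centring on all probe sets the siH19-1 value of GPAT3 was 0.53. Among 7 acyl-CoA synthetase and acyl-CoA binding genes, 1 fell with siH19-2, near the 8.95% of all compared genes that did. It was ACSL5, which read 11.97, 12.05 and 11.38 (-0.59). After 4 of 5 other scalings ACSL5 was at -0.43 to -0.54.

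Fatty acid breakdown had 0 of 19 compared genes that fell with either siRNA, where 2.63% (siH19-1) and 8.95% (siH19-2) of all compared genes did, and 1 that rose with siH19-2, near the 2.94% of all. It was ETFDH, which passes electrons from oxidation to ubiquinone (6.97, 6.97 and 7.60, a difference of 0.63, or 0.53 after centring on all probe sets). CPT1A, which admits long chains to mitochondria and was named after its values were seen, was at 0.15 and -0.40. The oxidation medians were -0.07 with siH19-1 and 0.02 with siH19-2. In mitochondrial fatty acid synthesis, 1 of 5 compared genes fell with both siRNAs, where 1.09% of all compared genes did. It was NDUFAB1, the acyl carrier protein that is also a subunit of respiratory complex I. NDUFAB1 went from 11.16 to 10.42 and 7.90 (-0.74 and -3.26), while the other 4 compared genes of that list lay between -0.26 and 0.15. Of 11 uptake genes with a symbol of their own, 3 passed the signal minimum, FABP5, SLC27A2 and SLC27A4, named after their values were seen; 0 of the 3 passed 1.5-fold, which at the shares above is near the background.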
